A study of Mus musculus with 16 samples.

Results

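The genes described here are 31 genes of blood vessels and lymphatic vessels: 22 genes of blood endothelium, 4 genes used as markers of lymphatic endothelium and 5 secreted vascular growth factors. They were taken as a fixed list of symbols, and each gene was read from the probes whose transcript accession maps to it. All 31 were measured and passed the filter on dim probes, out of 16677 named genes tested. RNA came from fat of female mice on 16 1-colour Agilent arrays, 4 arrays for each of 4 groups: brown adipose tissue (BAT) of mice lacking the glucocorticoid receptor (GR, gene Nr3c1) in adipose tissue (AdipoKO_BAT), BAT of control mice (CTL_BAT), white adipose tissue (WAT) of the knockout mice (AdipoKO_WAT) and WAT of control mice (CTL_WAT). The design text calls the controls wild-type. The promoter that drives the deletion, the strain, the age of the mice and the WAT depot are not given in the sources used here. Nothing says that the arrays of a group came from separate animals, so p-values measure the spread between these samples.

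Blood endothelial cells line all blood vessels and are held together by junction proteins such as VE-cadherin. They survive and sprout under vascular endothelial growth factors (VEGFs), which fat cells secrete and which act through receptor tyrosine kinases on the endothelium, while angiopoietins act on the receptor Tek and set how stable a vessel is. Lymphatic endothelium is a separate lineage specified by Prox1. Brown fat is known for a dense capillary bed that brings oxygen and fuel to thermogenic cells.

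A level below is the log2 processed signal minus the 75th percentile of its array, so a value of 0 is the signal of the 75th percentile probe, and levels are compared only between samples of the same gene. A change is a log2 difference ± SE from limma, knockout minus control or BAT minus WAT, and a gene is called where its p, adjusted over all 25107 genes and unnamed probes, is under 0.05. The number of arrays limits the precision. The arrays AdipoKO_WAT 1 and 2 differed by less than spot noise (SD of the log2 difference 0.0832, against 0.0904 from repeated spots) and were counted as 1 sample, knockout 1-2, so AdipoKO_WAT has n = 3 and the fit holds 15 samples. Nr3c1 averaged 1.45 ± 0.21 in AdipoKO_BAT and 2.49 ± 0.17 in CTL_BAT (SD, n = 4 each, change -1.03 ± 0.18, adjusted p = 0.0814). In WAT it averaged 1.53 ± 0.15 in AdipoKO_WAT (n = 3) and 2.19 ± 0.28 in CTL_WAT (n = 4, change -0.66 ± 0.19, adjusted p = 0.211). In neither depot did knockouts and controls overlap, and which part of the gene is deleted is not given. The WAT samples differed in content: the level of 6 T cell markers (the middle value, over the markers, of each one's log2 distance from its own average across samples) was 4.84, 4.55 and -1.49 in AdipoKO_WAT 1-2, 3 and 4, against -0.26, -0.76, 3.69 and 3.06 in CTL_WAT 1 to 4, and 6 intestinal markers were at 5.63 and 4.34 in CTL_WAT 1 and 4. In bulk RNA, fewer cells of a type and less RNA per cell cannot be told apart.

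**Figure D1:**
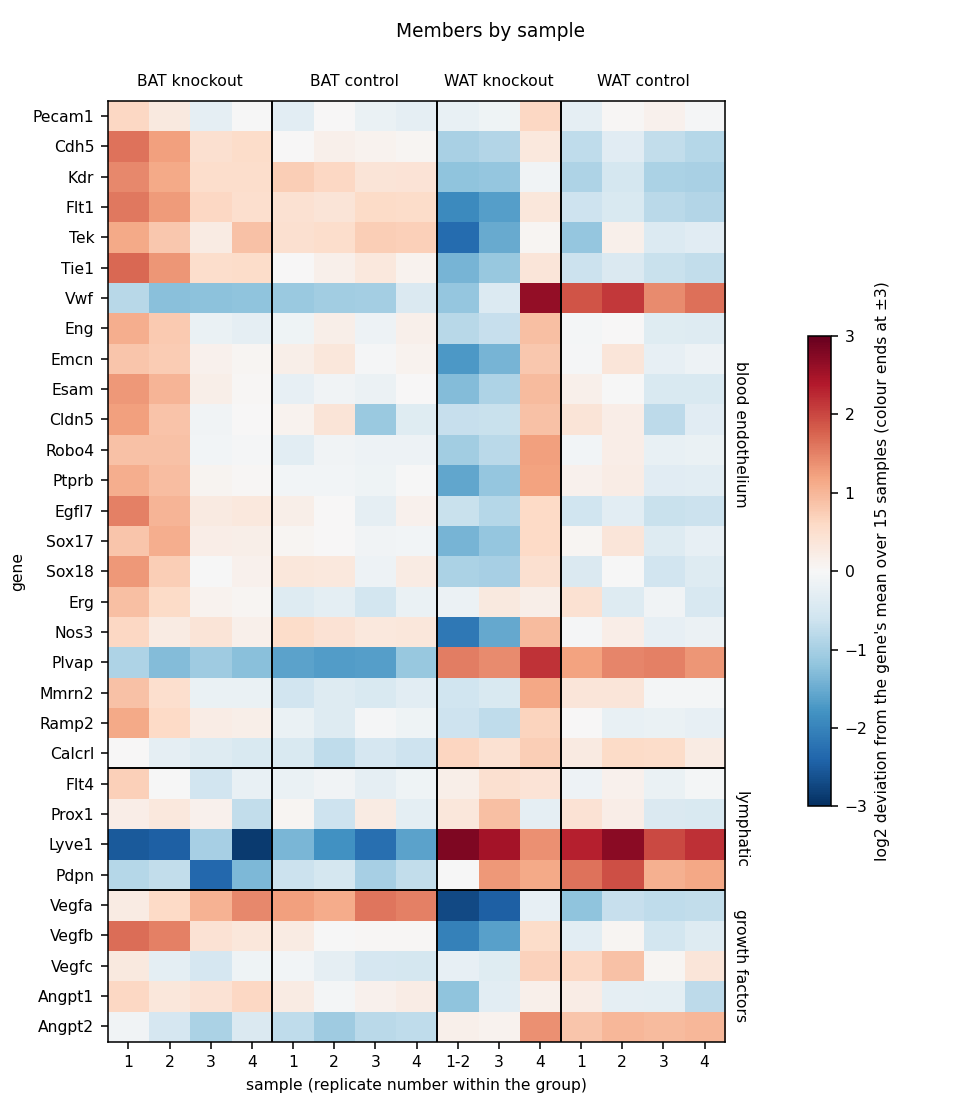
Each row is 1 of the 31 genes and each column 1 of the 15 samples, with colour for how far the log2 level lies from the average of that gene across all columns. Plvap, Lyve1, Pdpn and Angpt2 are lower in BAT than in WAT, Vwf is lower in BAT in controls, Vegfa, Kdr and Flt1 are higher in BAT, AdipoKO_BAT 1 and 2 stand above the other BAT samples for most blood endothelial genes, and the WAT knockouts divide into 1-2 and 3, which are low, and 4, which is high.

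Of the growth factors, Vegfa, the main ligand for vessel sprouting, was higher in BAT than in WAT in both genotypes. Its levels were 3.51, 3.88, 4.31 and 4.70 in AdipoKO_BAT 1 to 4, 4.50, 4.39, 4.88 and 4.79 in CTL_BAT, 0.56, 0.81 and 3.03 in AdipoKO_WAT 1-2, 3 and 4, and 2.06, 2.56, 2.50 and 2.53 in CTL_WAT. No BAT sample overlapped a WAT sample of its genotype. Between depots Vegfa rose 6.20-fold in knockouts (2.63 ± 0.47, adjusted p = 0.00109) and 4.67-fold in controls (2.22 ± 0.44, adjusted p = 0.00145). The other 3 Vegfa probes gave 2.03 to 2.41 in controls. Knockout against control, Vegfa changed by -0.54 ± 0.44 in the BAT of knockouts, with an adjusted p of 0.661, and its WAT change of -0.95 ± 0.47 was not called either (adjusted p = 0.294). In BAT its 4 probes differed in sign, at -0.54, -0.08, 0.32 and 0.66, so no direction can be given there. In WAT all 4 probes were negative, from -0.95 to -0.27.

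Vegfb, a VEGF that binds Flt1 and is abundant in energy-burning tissues, had levels of 6.64, 6.50, 5.41 and 5.33 in AdipoKO_BAT, against 5.21, 4.97, 5.01 and 5.01 in CTL_BAT. All 4 BAT knockouts lay above all controls, and the change of 0.92 ± 0.47 did not pass the test (adjusted p = 0.421); a dimmer Vegfb probe gave 0.02. In WAT Vegfb was 2.94, 3.36 and 5.53 in AdipoKO_WAT 1-2, 3 and 4, against 4.66, 5.03, 4.43 and 4.59 in CTL_WAT. Its difference of the 2 knockout changes, BAT minus WAT, was 1.65 ± 0.69, with an unadjusted p of 0.0307 and an adjusted p of 0.447. The dimmer Vegfb probe gave 0.97 for this difference. Between depots Vegfb rose 4.07-fold in knockouts (2.02 ± 0.50, adjusted p = 0.00830) and changed by 0.37 ± 0.47 in controls (adjusted p = 0.596). The dimmer probe gave 1.98 in knockouts and 1.01 in controls. The knockout call was lost without AdipoKO_WAT 3 (adjusted p = 0.0511), AdipoKO_WAT 1-2 (0.0541) or AdipoKO_BAT 1 and 2 together (0.0826), and without AdipoKO_WAT 4 the change was 2.82.

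Vegfc, the ligand that drives lymphatic growth through Flt4, was lower in BAT in controls: it averaged 0.10 ± 0.21 in CTL_BAT and 0.93 ± 0.35 in CTL_WAT (SD, n = 4 each, change -0.83 ± 0.26, adjusted p = 0.0249). Leaving out CTL_WAT 1 or 2, or CTL_BAT 3 or 4, ended this call, with adjusted p from 0.0542 to 0.0710. In knockouts the depot change of Vegfc was -0.19 ± 0.28. Angpt2, an angiopoietin that opposes Tek signalling and loosens vessels, had levels of -0.87, -1.26, -1.69 and -1.18 in AdipoKO_BAT, -1.51, -1.82, -1.56 and -1.51 in CTL_BAT, -0.60, -0.65 and 0.62 in AdipoKO_WAT 1-2, 3 and 4, and 0.09, 0.24, 0.19 and 0.24 in CTL_WAT. Every BAT sample lay below every WAT sample. Angpt2 was 3.46-fold lower in BAT in controls (-1.79 ± 0.26, adjusted p = 0.000150) and 2.06-fold lower in knockouts (-1.04 ± 0.28, adjusted p = 0.0130). Angpt1, the Tek agonist made by mural and stromal cells, rose in BAT in knockouts (0.96 ± 0.29, adjusted p = 0.0226) and changed by 0.41 ± 0.27 in controls (adjusted p = 0.270). The Angpt1 call held in 21 of 27 settings: with normexp background correction the change was 0.53 (adjusted p = 0.430) and without AdipoKO_WAT 1-2 it was 0.58 (adjusted p = 0.129), and leaving out AdipoKO_WAT 3 or AdipoKO_BAT 4 also ended the call (adjusted p = 0.0513 and 0.0512).

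Kdr and Flt1 are the VEGF receptors of blood endothelium, Kdr the signalling receptor for Vegfa and Flt1 a high-affinity receptor that also acts as a trap. Kdr had levels of 4.55, 4.25, 3.63 and 3.64 in AdipoKO_BAT, 3.85, 3.72, 3.50 and 3.53 in CTL_BAT, 1.91, 1.96 and 3.0 in AdipoKO_WAT 1-2, 3 and 4, and 2.19, 2.59, 2.15 and 2.14 in CTL_WAT. BAT lay above WAT in every sample. Kdr was 3.32-fold higher in the BAT of knockouts (1.73 ± 0.29, adjusted p = 0.000712) and 2.61-fold in controls (1.38 ± 0.27, adjusted p = 0.00143). Flt1 had levels of 6.07, 5.78, 5.12 and 4.99 in AdipoKO_BAT, 4.96, 4.88, 5.07 and 5.04 in CTL_BAT, 2.58, 2.84 and 4.83 in AdipoKO_WAT 1-2, 3 and 4, and 3.87, 4.04, 3.69 and 3.62 in CTL_WAT. It rose 4.20-fold in the BAT of knockouts (adjusted p = 0.00290) and 2.27-fold in that of controls (1.19 ± 0.40, adjusted p = 0.0342). The control call of Flt1 was made in 16 of 27 settings; with slide as a block its adjusted p was 0.0525, and leaving out any 1 of 7 control samples (CTL_BAT 1 to 4, CTL_WAT 1, 3 or 4) gave adjusted p from 0.0548 to 0.0832.

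Tek, the angiopoietin receptor, and Tie1, its orphan partner, were also higher in the BAT of knockouts. Tek had levels of 1.14, 0.82, 0.25 and 0.88 in AdipoKO_BAT, 0.49, 0.54, 0.73 and 0.71 in CTL_BAT, -2.30, -1.50 and 0.07 in AdipoKO_WAT 1-2, 3 and 4, and -1.17, 0.16, -0.42 and -0.34 in CTL_WAT. Tie1 had levels of 2.90, 2.49, 1.70 and 1.72 in AdipoKO_BAT, 1.18, 1.32, 1.48 and 1.27 in CTL_BAT, -0.23, 0.04 and 1.55 in AdipoKO_WAT 1-2, 3 and 4, and 0.54, 0.74, 0.50 and 0.43 in CTL_WAT. For both genes BAT samples lay above all WAT samples of their genotype. Between depots Tek rose by 2.01 ± 0.45 in knockouts (adjusted p = 0.00421) and changed by 1.06 ± 0.41 in controls (adjusted p = 0.0627). Tie1 rose by 1.75 ± 0.38 in knockouts (adjusted p = 0.00374) and changed by 0.76 ± 0.35 in controls (adjusted p = 0.115). With only the compared groups in the fit, both genes were called in controls (adjusted p = 0.0109 for Tek and 0.00167 for Tie1). In knockouts Tek was then called (adjusted p = 0.0489) and Tie1 was not (adjusted p = 0.0608). Within BAT, all 4 Tie1 knockout levels lay above all controls (0.89 ± 0.35, adjusted p = 0.306). Ptprb, the endothelial phosphatase that acts on Tek and VE-cadherin, was not called in any of the 5 comparisons.

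Promoters of 4 endothelial receptors are given from RefSeq (mouse GRCm38.p6), each as 250 bases before and 50 after the annotated start, 5′ to 3′ on the gene's strand. Capitals mark CNGGAAG, a 7-letter form searched on both strands, in which N is any base. It stands for the ETS motif, the site of Erg and related factors that are active in endothelium, but does not cover all forms of it. Other stretches with GGAA stay in lower case, as in the Flt1 and Tie1 windows. Tie1 lies at chr4:118489800-118490099 (minus strand), Robo4, a guidance receptor that stabilises vessels, at chr9:37401722-37402021 (plus strand), Flt1 at chr5:147725962-147726261 (minus strand) and Kdr at chr5:75978406-75978705 (minus strand). Tie1 and Robo4 are shown as windows with matches, Flt1 and Kdr as the pair of VEGF receptors that rose in BAT.
Tie1: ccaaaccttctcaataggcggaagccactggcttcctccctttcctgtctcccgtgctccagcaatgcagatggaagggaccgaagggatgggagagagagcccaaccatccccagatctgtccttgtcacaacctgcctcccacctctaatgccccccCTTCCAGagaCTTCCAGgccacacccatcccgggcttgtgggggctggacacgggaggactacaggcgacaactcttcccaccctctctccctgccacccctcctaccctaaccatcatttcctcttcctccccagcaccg
Robo4: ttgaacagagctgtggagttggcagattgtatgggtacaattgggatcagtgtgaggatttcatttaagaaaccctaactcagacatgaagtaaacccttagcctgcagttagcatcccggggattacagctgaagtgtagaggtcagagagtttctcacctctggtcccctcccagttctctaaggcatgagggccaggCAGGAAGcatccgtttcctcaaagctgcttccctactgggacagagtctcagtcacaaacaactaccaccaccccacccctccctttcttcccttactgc
Flt1: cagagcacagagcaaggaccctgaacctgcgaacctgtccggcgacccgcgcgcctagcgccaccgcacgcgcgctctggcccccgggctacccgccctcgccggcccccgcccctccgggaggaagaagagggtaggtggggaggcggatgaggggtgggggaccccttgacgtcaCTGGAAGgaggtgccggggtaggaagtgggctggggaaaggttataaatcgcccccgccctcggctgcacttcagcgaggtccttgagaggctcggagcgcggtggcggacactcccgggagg
Kdr: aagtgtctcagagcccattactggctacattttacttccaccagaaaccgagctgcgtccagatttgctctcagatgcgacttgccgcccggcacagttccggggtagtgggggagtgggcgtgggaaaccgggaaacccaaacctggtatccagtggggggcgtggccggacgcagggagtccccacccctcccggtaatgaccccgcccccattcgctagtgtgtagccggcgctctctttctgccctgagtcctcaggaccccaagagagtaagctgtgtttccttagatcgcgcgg
Tie1 holds 2 matches, Robo4 and Flt1 hold 1 each, and the Kdr window holds 0 of these letters. Of the 31 genes, 17 were in the promoter table, with 23 windows. Of these windows 11 (47.8%) hold the letters CNGGAAG, for 9 genes, against 31.9% of all 32851 windows of the same length. A match describes the letters and is not a measured site, and the shares count these letters only.

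Junction and surface proteins of blood endothelium included Pecam1 (CD31), Cdh5 (VE-cadherin), the adhesion molecules Esam and Emcn, the tight junction protein Cldn5, and Eng, a co-receptor for TGF-beta ligands. Cdh5 had levels of 4.64, 4.23, 3.47 and 3.55 in AdipoKO_BAT, 3.02, 3.16, 3.10 and 3.07 in CTL_BAT, 2.04, 2.12 and 3.31 in AdipoKO_WAT 1-2, 3 and 4, and 2.24, 2.65, 2.26 and 2.15 in CTL_WAT. All BAT knockouts exceeded all BAT controls (0.89 ± 0.30, adjusted p = 0.248), although a dimmer Cdh5 probe gave 0.19. Between depots Cdh5 rose 2.79-fold in knockouts (1.48 ± 0.33, adjusted p = 0.00406) and changed by 0.76 ± 0.30 in controls (adjusted p = 0.0678). The dimmer probe gave 1.62 in knockouts and 1.30 in controls. With only the compared groups in the fit, Cdh5 was called in controls (adjusted p = 0.00270) and not in knockouts (adjusted p = 0.0627). Pecam1 had levels of 0.99, 0.65, 0.09 and 0.34 in AdipoKO_BAT, 0.06, 0.36, 0.17 and 0.10 in CTL_BAT, 0.14, 0.24 and 0.97 in AdipoKO_WAT 1-2, 3 and 4, and 0.09, 0.41, 0.50 and 0.32 in CTL_WAT. These ranges overlapped in every comparison, with changes from -0.16 to 0.34. Eng, Emcn, Esam, Cldn5 and Robo4 were not called in any comparison; their depot changes were -0.12 to 0.21 in controls and 0.56 to 1.21 in knockouts. Within BAT, the knockout changes of Eng and Emcn were 0.34 and 0.30, and those of Esam, Cldn5 and Robo4 were 0.77, 0.74 and 0.59.

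**Figure D2:**
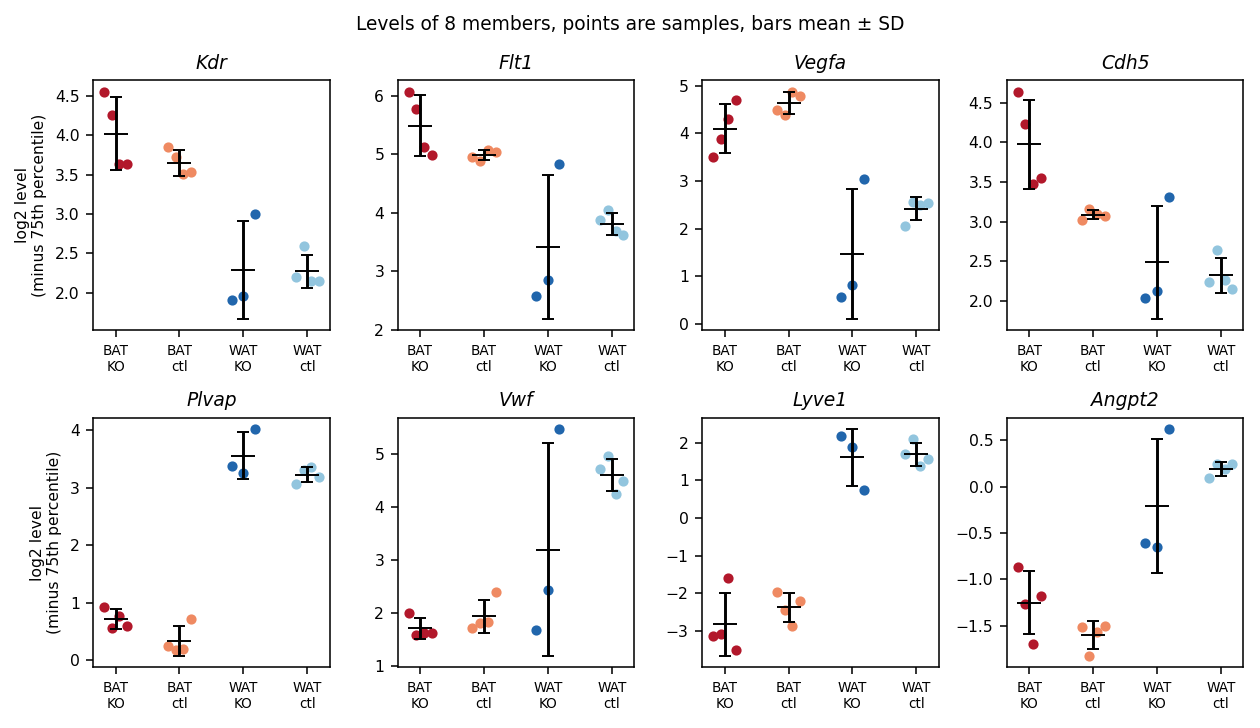
Points are samples, and black bars are group means ± SD of the log2 level of 8 genes, with BAT knockout, BAT control, WAT knockout and WAT control from left to right (n = 4, 4, 3 and 4). Kdr, Flt1, Vegfa and Cdh5 are higher in BAT than in WAT, Plvap, Lyve1 and Angpt2 are lower, and the WAT knockout points are widely spread, for Vwf from 1.68 to 5.47.

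Plvap, which forms the diaphragms of fenestrae and caveolae, was the blood endothelial gene with the largest depot difference. It had levels of 0.93, 0.55, 0.77 and 0.59 in AdipoKO_BAT, 0.25, 0.18, 0.19 and 0.72 in CTL_BAT, 3.38, 3.26 and 4.02 in AdipoKO_WAT 1-2, 3 and 4, and 3.06, 3.31, 3.35 and 3.18 in CTL_WAT. Every BAT sample lay over 2 log2 units below every WAT sample. Plvap was 7.18-fold lower in the BAT of knockouts (-2.84 ± 0.21, adjusted p = 1.52e-06) and 7.42-fold lower in that of controls (-2.89 ± 0.20, adjusted p = 4.13e-07), and its difference between genotypes was 0.05 ± 0.29. Knockout against control, it changed by 0.38 ± 0.20 in BAT and 0.33 ± 0.21 in WAT, neither called.

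Vwf, the clotting protein stored in endothelium, had levels of 2.0, 1.58, 1.62 and 1.63 in AdipoKO_BAT, 1.72, 1.80, 1.83 and 2.40 in CTL_BAT, 1.68, 2.42 and 5.47 in AdipoKO_WAT 1-2, 3 and 4, and 4.71, 4.96, 4.25 and 4.49 in CTL_WAT. WAT knockouts 1-2 and 3 were at or near the BAT levels and knockout 4 was above all WAT controls. In controls Vwf was 6.35-fold lower in BAT (-2.67 ± 0.58, adjusted p = 0.00288; a dimmer probe gave -2.79), and in knockouts the depot change of -1.49 ± 0.62 was not called (adjusted p = 0.0891). In WAT its knockout change of -1.41 ± 0.62 had the smallest p of the 31 genes there (unadjusted p = 0.0409, adjusted p = 0.269).

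Calcrl and Ramp2 together form the adrenomedullin receptor. Calcrl had levels of 1.01, 0.74, 0.62 and 0.54 in AdipoKO_BAT, 0.55, 0.25, 0.49 and 0.37 in CTL_BAT, 1.65, 1.45 and 1.75 in AdipoKO_WAT 1-2, 3 and 4, and 1.27, 1.58, 1.55 and 1.25 in CTL_WAT. It was lower in BAT in every sample, with changes of -0.89 ± 0.17 in knockouts (adjusted p = 0.00190) and -1.0 ± 0.16 in controls (adjusted p = 0.000324). Ramp2, its partner, had levels of 5.18, 4.64, 4.26 and 4.21 in AdipoKO_BAT, 3.83, 3.67, 4.01 and 3.91 in CTL_BAT, 3.43, 3.29 and 4.72 in AdipoKO_WAT 1-2, 3 and 4, and 4.06, 3.81, 3.84 and 3.79 in CTL_WAT. Its depot changes were 0.76 ± 0.32 in knockouts and -0.02 ± 0.29 in controls, neither called. Adm, the ligand of this receptor pair and not one of the 31 genes, was lower in BAT in controls, with a change of -2.10 ± 0.26 (adjusted p = 3.53e-05).

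Nos3 makes nitric oxide in endothelium, Egfl7 and Mmrn2 are proteins that endothelium deposits in its matrix, and Sox17, Sox18 and Erg are transcription factors of endothelial identity. Nos3 had levels of 2.41, 2.03, 2.19 and 1.94 in AdipoKO_BAT, 2.33, 2.22, 2.10 and 2.12 in CTL_BAT, -0.34, 0.26 and 2.75 in AdipoKO_WAT 1-2, 3 and 4, and 1.75, 1.99, 1.54 and 1.62 in CTL_WAT. WAT knockouts 1-2 and 3 were the lowest samples for Nos3 and knockout 4 was the highest. Egfl7 had levels of 6.10, 5.61, 4.85 and 4.90 in AdipoKO_BAT, 4.75, 4.60, 4.31 and 4.71 in CTL_BAT, 3.92, 3.73 and 5.18 in AdipoKO_WAT 1-2, 3 and 4, and 4.00, 4.27, 3.92 and 3.95 in CTL_WAT. Erg had levels of -2.65, -2.97, -3.44 and -3.49 in AdipoKO_BAT, -3.95, -3.85, -4.10 and -3.74 in CTL_BAT, -3.73, -3.27 and -3.37 in AdipoKO_WAT 1-2, 3 and 4, and -3.09, -3.94, -3.66 and -4.04 in CTL_WAT. For Egfl7 and Erg all BAT knockouts lay above all BAT controls. Between depots in knockouts Egfl7 (1.08 ± 0.35, adjusted p = 0.0318), Sox17 (1.23 ± 0.40, adjusted p = 0.0324) and Sox18 (1.03 ± 0.37, adjusted p = 0.0497) rose in BAT, and these calls held in 18, 17 and 6 of 27 settings. A dimmer Sox17 probe gave 1.08 in this comparison and the dimmest gave -0.18. With the mean of its kept probes Sox17 changed by 0.71 (adjusted p = 0.167). In controls the depot changes of Egfl7, Sox17 and Sox18 were 0.56, 0.02 and 0.54, none called.

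The 4 lymphatic markers divided into a pair that was much lower in BAT and a pair that was not called. Lyve1, a hyaluronan receptor of lymphatic endothelium that resident macrophages also carry, had levels of -3.14, -3.07, -1.60 and -3.50 in AdipoKO_BAT, -1.98, -2.44, -2.87 and -2.21 in CTL_BAT, 2.18, 1.89 and 0.75 in AdipoKO_WAT 1-2, 3 and 4, and 1.71, 2.10, 1.37 and 1.57 in CTL_WAT. Lyve1 was 21.6-fold lower in the BAT of knockouts (-4.43 ± 0.43, adjusted p = 9.60e-06) and 16.7-fold lower in that of controls (-4.06 ± 0.40, adjusted p = 6.45e-06). A dimmer probe gave -2.90 and -2.63. Pdpn, a mucin-like protein of lymphatic endothelium, mesothelium and stroma, had levels of -4.91, -4.79, -6.41 and -5.38 in AdipoKO_BAT, -4.69, -4.58, -5.04 and -4.78 in CTL_BAT, -4.05, -2.75 and -2.92 in AdipoKO_WAT 1-2, 3 and 4, and -2.41, -2.10, -2.98 and -2.89 in CTL_WAT. Pdpn was well above background on none of the 4 AdipoKO_BAT arrays and on 2 of the 4 CTL_BAT arrays. Between depots Pdpn changed by -2.13 in knockouts (adjusted p = 0.00137) and by -2.17 ± 0.37 in controls (adjusted p = 0.000453). The knockout difference was 2.52-fold with AdipoKO_BAT levels raised to the lowest level of any probe well above background on each array. With normexp background correction the changes were -0.385 and -1.02, and neither Pdpn call was made (adjusted p = 0.849 and 0.0949).

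Prox1, the factor that specifies lymphatic identity, and Flt4, the receptor for Vegfc, were not called in any comparison. Both were low in signal, although well above background on all 16 arrays. Prox1 had levels of -3.57, -3.44, -3.63 and -4.49 in AdipoKO_BAT, -3.70, -4.38, -3.51 and -4.05 in CTL_BAT, -3.42, -2.86 and -4.03 in AdipoKO_WAT 1-2, 3 and 4, and -3.32, -3.57, -4.21 and -4.22 in CTL_WAT. Its depot changes were -0.35 ± 0.35 in knockouts and -0.08 ± 0.32 in controls. Flt4 had levels of -2.53, -3.27, -3.82 and -3.47 in AdipoKO_BAT, -3.45, -3.35, -3.52 and -3.39 in CTL_BAT, -3.08, -2.77 and -2.85 in AdipoKO_WAT 1-2, 3 and 4, and -3.41, -3.12, -3.46 and -3.32 in CTL_WAT. All WAT knockouts lay above all WAT controls for Flt4, and the change of 0.43 ± 0.24 was not called (adjusted p = 0.331).

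Other cell types that carry Lyve1 or Pdpn differed between the depots as well. All 6 macrophage markers were called lower in BAT in controls and 4 of 6 in knockouts; their list level ranged from -1.02 to -0.66 in AdipoKO_BAT, -1.10 to -0.74 in CTL_BAT, 0.15 to 0.95 in AdipoKO_WAT and 1.02 to 2.0 in CTL_WAT. All 6 mesothelial markers were called lower in BAT in controls and 4 of 6 in knockouts, with list levels from -2.65 to -1.97 in AdipoKO_BAT, -2.91 to -1.81 in CTL_BAT, -1.25 to 2.78 in AdipoKO_WAT and 3.14 to 4.85 in CTL_WAT. Lymph node stroma and lymphocyte markers were lower too: in knockouts 5 of 6 stroma, 5 of 6 T cell and 4 of 6 B cell markers were called lower in BAT, with medians of -4.81, -4.04 and -3.98, and in controls 2, 2 and 4 of 6 were, with medians of -2.97, -3.37 and -3.0. The part of these markers in the Lyve1 and Pdpn differences, and in those of the further lymphatic genes, was not tested. Of 11 further lymphatic genes that are not among the 31, 8 were called lower and 1 higher in the BAT of controls, and 7 lower and 1 higher in that of knockouts, with medians of -2.31 in controls and -2.42 in knockouts against 0.11 and -0.09 over all features. These include Ccl21a, which lymph node stroma also makes and which is on that list too; without it 7 of 10 were called lower in controls and 6 of 10 in knockouts. Among them Mmrn1, a matrix protein of lymphatic endothelium, fell by 4.42 in the BAT of controls (adjusted p = 5.33e-06), Itga9, an integrin of lymphatic valves, fell by 2.31 and Foxc2, a transcription factor of valves, fell by 2.47, while Nrp2, a co-receptor for Vegfc, rose by 1.44 in the BAT of knockouts (adjusted p = 0.000794).

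Over the whole list, 16 of 31 genes were called between depots in knockouts, 11 higher and 5 lower in BAT, against 30.6% of all features (16.6% higher and 14% lower). In controls 10 were called, 3 higher (Kdr, Vegfa and Flt1) and 7 lower (Plvap, Lyve1, Angpt2, Calcrl, Pdpn, Vwf and Vegfc), against 33.4% of all features (19.1% higher and 14.3% lower). The control split was 5 higher and 6 lower with normexp background correction, 2 higher and 8 lower with quantile normalization, and 9 higher and 8 lower with only the control groups in the fit. The share called in controls was thus near that of all features. The median change was 0.76 in knockouts and 0.00 in controls, against -0.09 and 0.11 over all features. The 2 depot comparisons rest on separate samples, and the difference between them, the interaction, was called for 0 genes. Within slides, each of which holds 1 array of every group, the 10 control calls had the same sign on all 4 slides. That had to follow, because CTL_BAT and CTL_WAT did not overlap for any of these 10 genes, so it adds no support. The knockout calls depended on which samples entered: 24 genes were called without AdipoKO_WAT 4, against 45.6% of all features, 12 without AdipoKO_BAT 1 and 2, against 27.2%, and 6 when only the 2 knockout groups were fitted, against 11.9%. Without AdipoKO_WAT 4 the changes of Vegfa, Flt1, Tek and Sox17 were 3.41, 2.77, 2.67 and 1.85.

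**Figure D3:**
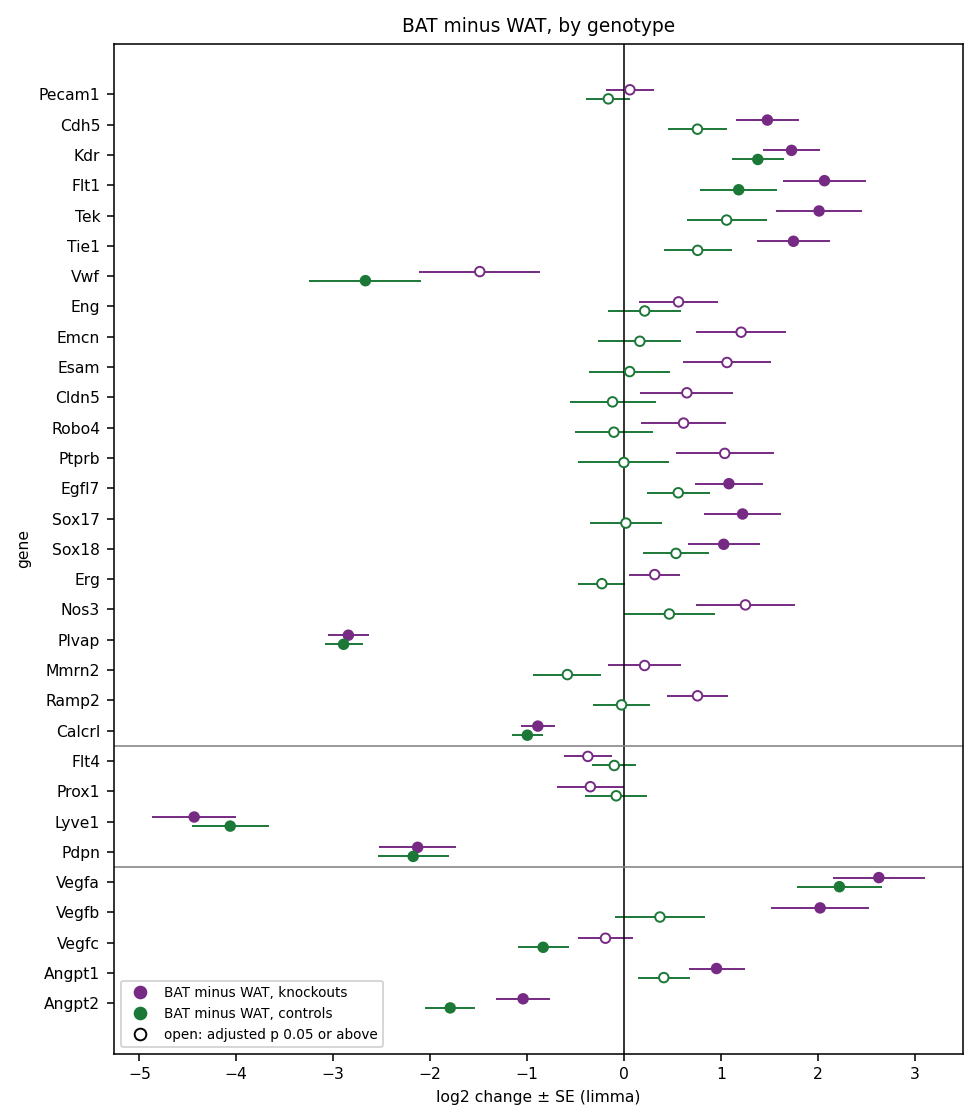
Log2 change, BAT minus WAT, ± SE for each of the 31 genes, in knockouts (purple) and controls (green), with filled points where the adjusted p is under 0.05. Plvap, Lyve1 and Calcrl are lower in BAT in both genotypes, the Pdpn points rest on BAT signals at or near background, and most other blood endothelial genes have more positive changes in knockouts than in controls, with no difference between genotypes past the threshold.

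The comparison within BAT asked what loss of the receptor in fat does to vascular transcripts there. No gene of the 31 was called, against 0.0159% of all features, and 5 had an unadjusted p under 0.05 (Erg, Cdh5, Tie1, Ramp2 and Egfl7), against 13.1% of all features. Their changes were 0.72 to 0.89, and the smallest adjusted p was 0.220, for Erg. All 4 knockouts lay above all 4 controls for 12 of 31 genes (Cdh5, Tie1, Esam, Robo4, Ptprb, Egfl7, Sox17, Erg, Mmrn2, Ramp2, Vegfb and Angpt1), against 9.35% of all features, and all 4 lay below for 0 of 31, against 8.61%. Of the 22 blood endothelial genes 20 had a positive change, with a median of 0.55 against 0.10 over all features; of the 4 lymphatic genes 2 were positive and of the 5 growth factors 4.

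The BAT knockouts were not alike. The list level of the 22 blood endothelial genes was 1.10, 0.79, 0.12 and 0.06 in AdipoKO_BAT 1 to 4, against -0.04, 0.02, -0.14 and -0.004 in CTL_BAT. Knockouts 1 and 2 both lay above all controls for 23 of 31 genes, against 41.2% of all features, and knockouts 3 and 4 both did for 12 of 31, against 12.4%. Without knockouts 1 and 2 the median change of the 31 genes was 0.13, against 0.37 with them, and Cdh5 changed by 0.43, Tie1 by 0.40 and Erg by 0.44, with 0 genes called; 7 changes then had the opposite sign (Kdr, Tek, Eng, Emcn, Sox18, Flt4 and Prox1). The arrays of knockouts 1 and 2 were also dimmer, with a 75th percentile of 298 and 320, against 497 and 486 in knockouts 3 and 4 and 501 to 562 in the controls. The adipocyte list level was 0.55, 0.44, 0.26 and 0.27 in AdipoKO_BAT, against 0.06, 0.36, 0.23 and 0.24 in CTL_BAT, and the skeletal muscle level was 2.56, 5.30, 5.05 and 2.55 in AdipoKO_BAT, against 2.43, 3.02, 2.36 and -1.22 in CTL_BAT. Their part in the result was not tested. Within slides 1 to 4 the median change of the 31 genes was 0.83, 0.71, 0.08 and 0.11, against 0.46, 0.17, -0.08 and -0.06 over all features.

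**Figure D4:**
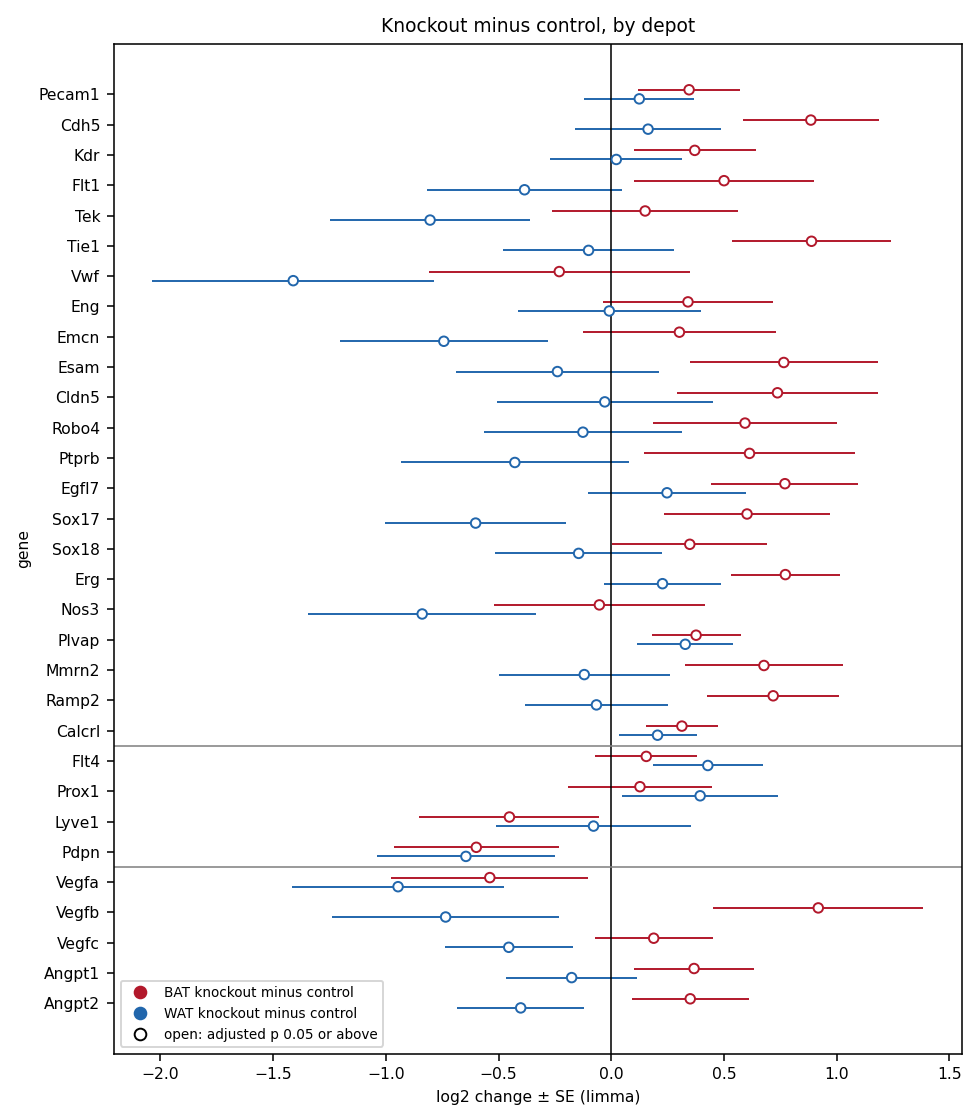
Log2 change, knockout minus control, ± SE for each of the 31 genes in BAT (red) and WAT (blue); all points are open because no adjusted p is under 0.05. Most blood endothelial genes lie right of 0 in BAT, with a median of 0.55, and on both sides of 0 in WAT, with a median of -0.11.

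In WAT no gene of the 31 was called either, against 0.0597% of all features, and 1 (Vwf) had an unadjusted p under 0.05, against 17.9% of all features. The median change was -0.13 against 0.24 over all features, and 22 of 31 changes were negative, including all 5 growth factors. The median was 0.19 without knockout 1-2 and 0.10 without knockout 3. The groups did not overlap for 1 gene, Flt4, which was higher in knockouts, against 6.47% of all features higher and 1.23% lower.

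The WAT knockouts were split in the same way for most blood endothelial genes. Knockouts 1-2 and 3 lay below all 4 controls, and knockout 4 above all 4, for 18 of 31 genes, against 12.1% of all features; the opposite order was seen for 0 of 31, against 8.11%. The 18 were 15 of 22 blood endothelial genes (Cdh5, Emcn, Eng, Esam, Flt1, Kdr, Mmrn2, Nos3, Ptprb, Ramp2, Robo4, Sox17, Sox18, Tie1 and Vwf), 3 of 5 growth factors (Vegfa, Vegfb and Angpt2) and 0 of 4 lymphatic genes. The blood endothelial list level was -1.0, -0.86 and 0.71 in AdipoKO_WAT 1-2, 3 and 4, against -0.04, 0.10, -0.35 and -0.32 in CTL_WAT. Plvap, Calcrl and Flt4 were among the 13 without this order: for each of them knockouts 1-2 and 3 were above the lowest control.

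The result in WAT depended on knockout 4. Without it 13 of 31 genes were called, a share near the 36.8% of all features called in either direction. All 13 were lower in knockouts: the receptors Flt1 and Tek, Vwf (-2.55), Emcn, Esam, Robo4, Ptprb, Sox17, Nos3 (-1.77), Vegfa (-1.73), Vegfb, Vegfc and Angpt2. The share of all features called lower in that fit was not computed, so their common direction is not read as a result about these genes. With knockout 1-2 left out instead, 0 genes were called, and the changes of Flt1, Esam, Robo4 and Ptprb were positive. The median change without knockout 4 was -0.65, with the sign turned for Cdh5, Egfl7, Kdr, Lyve1 and Pecam1. The fit without knockout 4 keeps 2 WAT knockout samples, which also differ from knockout 4 in content. The adipocyte list level was -1.96, -1.04 and 0.78 in AdipoKO_WAT 1-2, 3 and 4, against 0.19, 0.12, -0.28 and -0.50 in CTL_WAT. The level of 12 pericyte and smooth muscle genes was -1.15, -0.93 and 0.82 in AdipoKO_WAT, against 0.49, 0.15, -0.24 and 0.18 in CTL_WAT. The level of 6 lymph node stroma markers was 5.27, 4.87 and -0.62 in AdipoKO_WAT, against -0.87, -1.09, 3.95 and 3.34 in CTL_WAT. The part of these differences in content was not tested. Within slides 1 to 4 the median change of the 31 genes was -0.62, -0.89, 0.99 and -0.60, against 0.14, 0.10, 0.35 and 0.14 over all features. Slides 2 and 4 hold the arrays that were counted as 1 sample.

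**Figure D5:**
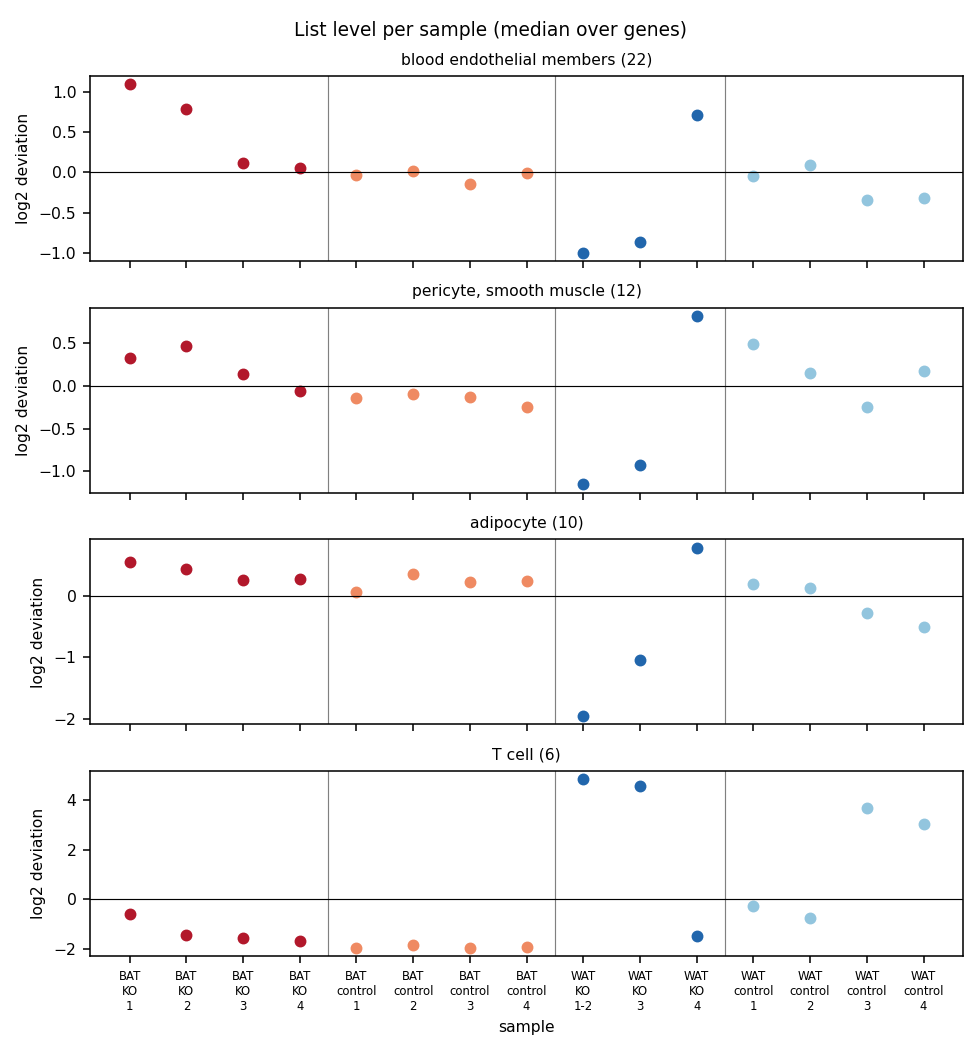
Each point is the level of a gene list in 1 sample, that is, the middle value of its genes' log2 distances from their averages across the 15 samples, for the 22 blood endothelial genes, 12 pericyte and smooth muscle genes, 10 adipocyte genes and 6 T cell genes. In AdipoKO_WAT 1-2 and 3 the first 3 lists are below 0 and T cell genes are at 4.84 and 4.55, while AdipoKO_WAT 4 shows the reverse.

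The difference between the knockout changes of the 2 depots (BAT minus WAT) was called for 0 of 31 genes, against 0.00398% of all features, with an unadjusted p under 0.05 for Vegfb and Sox17 (1.20 ± 0.55), against 10.4% of all features. Dimmer probes of these genes gave 0.97 for Vegfb, and 0.79 and -0.24 for Sox17. The difference was positive for 28 of 31 genes, including all 22 blood endothelial genes, with a median of 0.72 against -0.14 over all features. Without AdipoKO_WAT 4 it was called for 15 genes, against 16.2% of all features. Without AdipoKO_BAT 1 and 2 it was positive for 23 of 31 genes and 18 of 22 blood endothelial genes, with a median of 0.36 and 0 genes called.

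Genes that work beside the 31 were read from further lists. Among 28 other endothelial genes 10 were called between depots in controls, 2 higher and 8 lower in BAT, a share near the 33.4% of all features: the leukocyte adhesion genes Selp (-2.53) and Vcam1 (-2.64), the chemokine carrier Ackr1 of venules (-1.86) and Esm1 (-2.53), a proteoglycan secreted by endothelium, fell, and Nrp1, the co-receptor of Kdr, rose by 1.39 ± 0.26 (adjusted p = 0.000928). Vcam1 levels in WAT were 3.27, 3.08 and 0.63 in AdipoKO_WAT 1-2, 3 and 4, against 0.65, 0.59, 2.34 and 1.89 in CTL_WAT, high in the same samples as the T cell and lymph node stroma markers, whose part in its difference was not tested. Of 14 Notch, arterial and venous genes, the venous factor Nr2f2 (-1.29) and the arterial connexin gene Gja4 (-0.84) fell and the Notch ligand gene Jag2 (1.01) rose in the BAT of controls. In knockouts the arterial ligand gene Efnb2 rose by 1.43 ± 0.31 (adjusted p = 0.00405). Of 12 pericyte and smooth muscle genes, the pericyte gene Rgs5 rose by 1.77 ± 0.32 in the BAT of controls (adjusted p = 0.000833), and the contractile genes Tagln (-2.71), Myh11 (-2.87), Cnn1 (-3.71) and Acta2 (-2.89) fell. Among WAT controls these contractile genes were highest in CTL_WAT 1 and 4, for Cnn1 5.76, 3.81, 3.10 and 4.58 in CTL_WAT 1 to 4. Intestinal markers were high in the same samples, and their part in these changes was not tested. Of 18 other angiogenic factors 7 were called lower and 0 higher in the BAT of controls, against 14.3% and 19.1% of all features, among them the inhibitors Thbs1 (-4.06) and Thbs2 (-2.49). Thbs1 was well above background on only 2 of the 4 CTL_BAT arrays, so the size of its change is uncertain. Between depots in knockouts, 9 of the 28 other endothelial genes were called higher in BAT and 6 lower. For the 14 Notch, arterial and venous genes the counts were 3 and 1. They were 5 and 0 for the 12 pericyte and smooth muscle genes, and 5 and 4 for the 18 other angiogenic factors. Of all features 16.6% were called higher and 14% lower. Knockout against control, and in the interaction, none of the genes in these 4 lists was called.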

How the data were processed

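RNA of 16 samples was hybridised to 1-colour (Cy3) Agilent arrays. The authors deposited scanner output in intensity units, from Feature Extraction 12.0.0.7 per the submitters' processing notes, with background flags per spot; their deposited value table equalled the mean processed signal per probe to within 5e-06. From these, log2 signals minus each array's 75th percentile (298 to 1035) were computed here. A probe was kept if well above background on 3 of 4 arrays of a group, and a gene was read from its kept probe with the highest mean level. Of 41174 probes, 28223 were named through their accession in the RefSeq GRCm38.p6 table. The 31 genes have 46 probes, 44 of them kept, and 12 genes have over 1 probe.

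limma 3.58.1 (R 4.3.3) was fitted with 1 mean per group over 15 samples, with Benjamini-Hochberg adjustment over 25107 features, and was tested on simulated data. Each slide holds 1 array of every group, and each group has its own array position, so position and group cannot be told apart. Values in every sample are given for genes past the threshold (between depots, the 6 with the smallest adjusted p each way), the 5 with the smallest p in each knockout comparison, and Vegfa, Kdr, Pecam1, Prox1 and Lyve1; of each further list, up to 5 genes a comparison are named. The members and lists were chosen with earlier results of these data known. Alternatives changed the background correction, normalization, probe filter, probe choice, value source, blocks and samples.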

Additional observations from a re-analysis of the deposited data

Results flagged for a closer look

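Of 93 gene and group combinations with 4 samples, 6 had 1 sample set apart from the other 3 by most of the group's range; chance marks about 1 in 20. Vwf was 2.0 in AdipoKO_BAT 1, against 1.58 to 1.63 in the other BAT knockouts, and 2.40 in CTL_BAT 4, against 1.72 to 1.83 in the other BAT controls. Plvap was 0.725 in CTL_BAT 4, against 0.18 to 0.25 in the other BAT controls. Sox18 was 1.84 in CTL_BAT 3, against 2.25 to 2.33 in the other BAT controls. In WAT controls, Kdr was 2.59 in CTL_WAT 2, against 2.14 to 2.19 in the others, and Vegfa was 2.06 in CTL_WAT 1, against 2.50 to 2.56 in the others.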

How the results depend on the processing

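Leaving out 1 sample at a time gave 0 to 13 genes called in WAT knockouts (median change -0.65 to 0.19), 0 to 15 in the interaction, 11 to 24 between depots in knockouts and 8 to 14 between depots in controls; AdipoKO_WAT 4 set the 13, the 15 and the 24. With only the groups compared in the fit, 6 genes were called between depots in knockouts and 17 in controls, against 16 and 10; over all features 11.9% and 42.9% were. The changes themselves do not differ in that fit, which takes its spread from the 2 groups alone. The list level of the 31 genes had an SD of 0.89 in AdipoKO_WAT and 0.40 in AdipoKO_BAT. In CTL_WAT and CTL_BAT the SD was 0.23 and 0.035. The part of this spread in the counts was not tested. No change called in the main fit reversed its direction under any alternative run. These calls were all between depots, so nothing follows for the knockout and interaction comparisons, where 0 genes were called. Other changes did reverse: at most 11 of 31 in WAT knockouts (without AdipoKO_WAT 1-2), 7 in BAT knockouts and 5 in the interaction (both without AdipoKO_BAT 1 and 2), 4 between depots in knockouts and 5 in controls. Flt1, Esam, Robo4 and Ptprb, called lower in WAT without AdipoKO_WAT 4, were among the 11. Of the changes named between depots, 375 of 432 values in knockouts and 253 of 270 in controls stayed on the same side of the threshold; Plvap, Lyve1, Kdr and Vegfa were called in all 27 settings in both genotypes. The median change of all features in BAT knockouts was 0.10, and 0.34 with normexp, where the median of the 31 genes was 0.44; in WAT knockouts it was 0.24, and 0.11 with quantile normalization. With the replicate number as a block 0, 0, 0, 14 and 9 genes were called in the BAT, WAT, interaction, knockout depot and control depot comparisons. The median changes were 0.37, -0.10, 0.66, 0.75 and 0.00. Same-numbered samples correlated at -0.47 to 0.18. This cannot decide whether they share an animal, because the samples also differ in content, and the labels do not say. Over all features the calls in WAT knockouts ran from 0 to 9236 and in BAT knockouts from 0 to 85. Signal near background limits Pdpn, well above background on 10 of 16 arrays. The probes of Erg, Flt4 and Prox1 were low in signal but well above background on all 16. Of the further lists, signal near background limits Thbs1 and Foxc2 in BAT, well above background on 2 and 3 of 4 CTL_BAT arrays and on 0 AdipoKO_BAT arrays.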
